A study of Homo sapiens with 15 samples.

Results

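A set of 8 genes that hold heart muscle cells to each other was followed across the 5 groups of an ATRNL1 knockdown and overexpression study: DSP, DSG2, DSC2, PKP2 and JUP, which build the desmosome, and CDH2, CTNNA3 and TJP1, which belong to the adherens and tight junction machinery of the intercalated disc. They were the rows of the deposited count table that carry these 8 symbols, out of 58780 genes with an Ensembl identifier, and all 8 passed the filter on low counts that left 24659 genes to test. The cells were atrial cardiomyocytes made from H7, an established human embryonic stem cell line labelled wild type, by shaking spheroid culture with a retinoid step, and every group shares that differentiation and the dissociation of the spheroids on day 17. The 5 groups had 3 libraries each: a scramble siRNA control, siRNA-1 and siRNA-2 (separate siRNAs against ATRNL1), a control lentivirus, and a lentivirus that carries the short isoform of ATRNL1. Per the labels' protocols the lentiviral cells were selected with puromycin, so the siRNA and lentiviral arms differ in delivery and in selection. Only the short isoform was overexpressed, 1 cell line was used, and nothing in the labels says whether the libraries of a group came from separate differentiations, so p-values measure the spread between these libraries, which may be technical.

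The desmosome is a spot weld between neighbouring cells. Its cadherins, desmogleins and desmocollins, reach across the gap, plakoglobin (JUP) and plakophilins bind their tails, and desmoplakin (DSP) ties that plaque to the intermediate filaments, which are made of desmin in heart muscle. In cardiomyocytes desmosomes merge with adherens junctions, built on N-cadherin (CDH2) and alpha-catenins, into a mixed zone called the area composita. Inherited variants of DSP, DSG2, DSC2, PKP2 and JUP are known causes of arrhythmogenic cardiomyopathy.

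DSG2 and DSC2, the desmosomal cadherins, lie in 1 cluster of 7 desmosomal cadherin genes on chromosome 18, with 395520 bases between them, and DSP lies on chromosome 6. The bases just before the start of these 3 genes are shown because the 2 cadherin genes changed together, and opposite to DSP, in the overexpression comparison below. They come from RefSeq (GRCh38.p14), are the part of each promoter window that precedes the gene's first annotated base, and carry in capitals the letters CAGGTG, an E-box of the kind bound by the SNAIL and ZEB repressors. The DSP stretch is chr6:7541421-7541574 on the plus strand, that of DSG2 is chr18:31497927-31498042 on the plus strand, and that of DSC2 is chr18:31102523-31102671 on the minus strand.
DSP: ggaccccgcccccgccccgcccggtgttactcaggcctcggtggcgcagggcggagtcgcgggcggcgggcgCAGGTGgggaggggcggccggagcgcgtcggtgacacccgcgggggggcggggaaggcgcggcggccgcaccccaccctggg
DSG2: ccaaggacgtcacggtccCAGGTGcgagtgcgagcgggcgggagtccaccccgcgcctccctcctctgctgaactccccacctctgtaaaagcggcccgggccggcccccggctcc
DSC2: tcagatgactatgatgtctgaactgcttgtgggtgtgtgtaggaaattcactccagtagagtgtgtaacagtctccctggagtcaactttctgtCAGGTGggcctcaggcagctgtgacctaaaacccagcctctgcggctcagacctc
Guanine and cytosine made up 83.8% of the DSP stretch, 73.3% of the DSG2 stretch and 51.7% of the DSC2 stretch. CAGGTG occurs 1 time in each of these 3 stretches, and any part of it in the changes was not tested. Of the 8 genes, 7 matched a RefSeq window of 300 bases (250 before and 50 after a start), with 14 windows in all. Searched on both strands, CAGGTG was present in 5 of these windows, 1 each of DSP, DSG2, DSC2, JUP and TJP1, and in 20.6% of all 35116 windows of that length in the table. It occurred 2 times in the windows of DSP, DSG2 and JUP and 1 time in those of DSC2 and TJP1. Of all windows, 3.5% held it 2 or more times. These matches describe letters and not binding.

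The other genes lie apart: PKP2 on chromosome 12 (32790745 to 32896840), JUP on chromosome 17 (41754604 to 41786931), CTNNA3 on chromosome 10 (65912518 to 67696169), TJP1 on chromosome 15 (29699367 to 29968865) and CDH2 on chromosome 18 (27950966 to 28177446), in GRCh38 with GENCODE 29. DSP runs from 7541575 to 7586717, DSG2 from 31498043 to 31549008 and DSC2 from 31058840 to 31102522. All 8 are protein-coding. The sources used here do not give whether counting used strand. Where exons overlap, reads of an antisense gene cannot be told apart. That touches 2.76% of the exonic bases of DSG2, shared with DSG2-AS1, and 2.75% of those of CDH2, shared with AC110015.1, and no exonic base of the other 6 genes.

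Library totals ran from 37078568 to 108663135 counts, and the 8 genes had between 831 counts (DSC2) and 190107 counts (DSP) in a library. Levels below are CPM, read counts scaled to library size with TMM factors, and libraries are numbered by their column in the table. ATRNL1 itself was at 13.8 to 16.9 CPM with scramble siRNA, 8.26 to 10.2 with siRNA-1, 4.61 to 5.42 with siRNA-2, 27.1 to 29.2 with the control lentivirus and 636 to 927 with the ATRNL1 lentivirus, which matches the labels. All 12 cardiomyocyte markers were tested, with TNNT2 (cardiac troponin T) at 2999 ± 471 CPM (SD, n = 3) in scramble cells, and all 5 pluripotent markers had means under 1 CPM. MYL2, a marker of ventricular muscle, was at 1133 ± 62.9 CPM in the scramble cells, which are labelled atrial, and at 3806 ± 372 with the ATRNL1 lentivirus. One library of each group stood between the other 2 more often than either of them. Over 7258 genes above 20 CPM, scramble library 3 lay in the middle for 74.4% of genes, control lentivirus library 2 for 57.4%, siRNA-1 library 2 for 52.3%, ATRNL1 lentivirus library 3 for 51.6% and siRNA-2 library 2 for 40.4%. In 4 groups 1 sample title has a number that joins those of the others (such as 7, 8 and 78). The labels do not say what this means, the numbers in the columns of those groups are in no title, and whether those libraries share material with the others was not tested. Each comparison is therefore also given without those 5 libraries, a setting chosen after seeing the data.

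Per kilobase of exon, DSP was the most abundant of the 8 genes in scramble cells, at 168 ± 0.707 CPM per kilobase, above 99.6% of genes tested. CDH2 followed at 132.6 ± 7.36, and the 3 DSP libraries (167.4 to 168.8) did not overlap those of CDH2 (126.2 to 140.7). PKP2, the plakophilin of the heart, was at 59.9 ± 9.87, TJP1 (ZO-1, a scaffold under tight and adherens junctions) at 42.1, JUP at 24.4 and CTNNA3 (alphaT-catenin, the alpha-catenin of the area composita) at 18.5. The 2 desmosomal cadherins stood lowest on this scale, DSG2 at 5.98 ± 0.091 and DSC2 at 2.28, the latter above 59.8% of genes tested. The plaque genes were thus measured at far higher levels per length than the cadherins they bind.

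Within the families given in this paragraph the cardiac forms dominated in every library, except among the alpha-catenins. JUP, treated below beside its relative beta-catenin, did not dominate, at 33.3% of their summed level in scramble cells. DSG2 supplied between 99.6% and 100% of the desmoglein level per length, and DSG1, DSG3 and DSG4, the skin desmogleins, each averaged under 1 CPM over the 15 libraries. DSC2 supplied 83.6% ± 1.19 of the desmocollin level in scramble cells, the rest coming chiefly from DSC3 at a mean of 3.15 CPM over all libraries. PKP2 made up 87.2% ± 2.6 of the plakophilin level, with PKP4 as the other plakophilin above 1 CPM. TJP1 made up 98.9% of the level of the 3 ZO genes and CDH2 97.5% of that of the cadherins CDH1 to CDH4, whereas CTNNA3 was 19.3% ± 3.7 of the alpha-catenins, which also include CTNNA1 and CTNNA2.

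**Figure D1:**
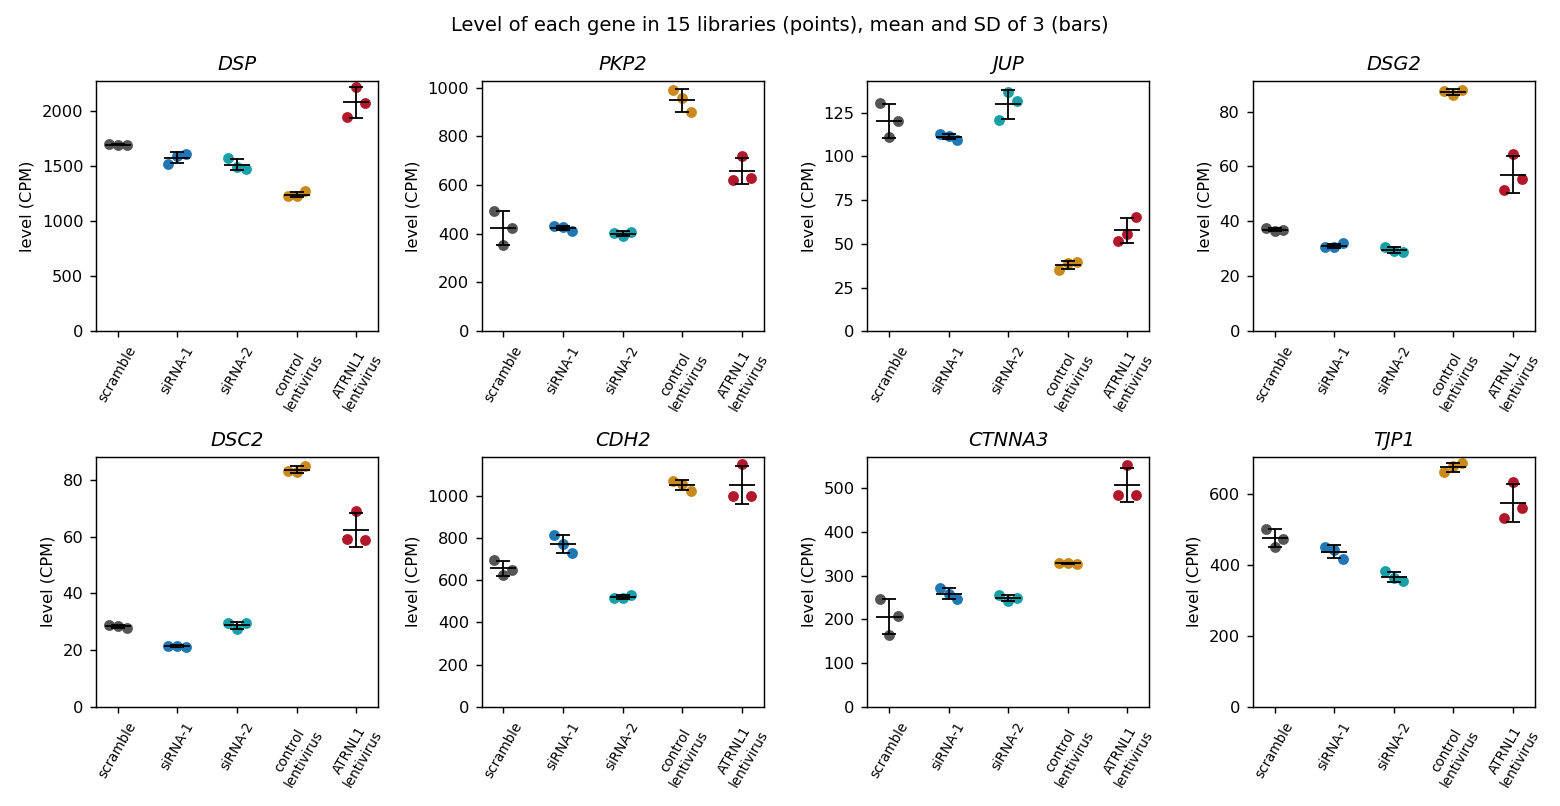
Level of each of the 8 genes in CPM in each of the 15 libraries, by group, with 1 point per library and a bar at the group mean. The siRNA and lentiviral arms stand apart for every gene except DSP: JUP is lower in all 6 lentiviral libraries (35.2 to 65.4) than in any siRNA library, and DSG2, DSC2 and PKP2 are higher.

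Overexpression of the short ATRNL1 isoform moved 7 of the 8 genes, and it moved them in different directions. DSP, JUP and CTNNA3 rose by 67.4%, 51.7% and 54.4%, while DSG2, PKP2, DSC2 and TJP1 fell, by 34.5%, 30.6%, 25.5% and 14.8%. CDH2 was level. The background in this comparison is high, with 37.1% of all genes tested called at an adjusted p below 0.05 by edgeR's quasi-likelihood test (19.1% higher and 18.0% lower). Libraries did not overlap for 7 of the 8, beside 42.9% of all genes tested. The median log2 fold change of the 8 was -0.12, beside 6e-04 over all genes tested. In bulk RNA, fewer cells of a type and less RNA per cell cannot be told apart, here and in every comparison below.

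Among the plaque genes, DSP encodes the link to the intermediate filaments. Its mRNA was at 1231, 1224 and 1269 CPM in the control lentivirus libraries and at 1942, 2222 and 2070 in the ATRNL1 lentivirus libraries. Every overexpression library exceeded every control, with a log2 fold change of 0.74 (SE 0.07, edgeR adjusted p = 2.97e-09). JUP, plakoglobin, went from 35.2, 39.2 and 39.5 CPM to 51.9, 55.9 and 65.4, a log2 fold change of 0.60 (SE 0.08, adjusted p = 1.62e-06), again with no overlap. PKP2 fell from 990, 957 and 898 CPM to 622, 720 and 630, a change of -0.53 (SE 0.09, adjusted p = 2.98e-05). The 3 plaque genes thus parted, with DSP and JUP higher and PKP2 lower in all 3 libraries.

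Both desmosomal cadherins fell. DSG2 was at 87.5, 85.9 and 87.9 CPM with the control virus and at 51.4, 64.4 and 55.3 with the ATRNL1 virus (log2 fold change -0.61, SE 0.07, adjusted p = 1.19e-07). DSC2 was at 83.3, 82.7 and 85.0 and then at 59.0, 69.2 and 58.8 CPM (-0.42, SE 0.07, adjusted p = 1.29e-05). Neither gene's groups overlapped, and library 2 of the ATRNL1 group was the highest of its group for both.

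Outside the desmosome the 3 genes differed. CTNNA3 rose from 330, 329 and 327 CPM to 484, 553 and 484 (log2 fold change 0.63, SE 0.09, adjusted p = 7.03e-06), without overlap. CDH2, the adherens cadherin to which alpha-catenins are linked through beta-catenin, was at 1070, 1058 and 1023 CPM and then at 997, 1153 and 1001. The groups overlapped, and the 95% interval of the log2 difference ran from -0.15 to 0.15. TJP1 fell from 661, 676 and 686 CPM to 530, 633 and 560 (-0.23, SE 0.07, adjusted p = 0.0126). Its call ended when 1 library was left out, with adjusted p = 0.0573 without control lentivirus library 2, 0.0653 without control lentivirus library 3, 0.0791 without ATRNL1 lentivirus library 1 and 0.0725 without ATRNL1 lentivirus library 3. Without the 5 in-between libraries the other 6 calls held and TJP1 was at -0.21 (adjusted p = 0.264). ATRNL1 lentivirus library 2, which had the lowest TMM factor of all libraries (0.835), was the highest of its group for every one of the 8 genes except JUP, and for ATRNL1.

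**Figure D2:**
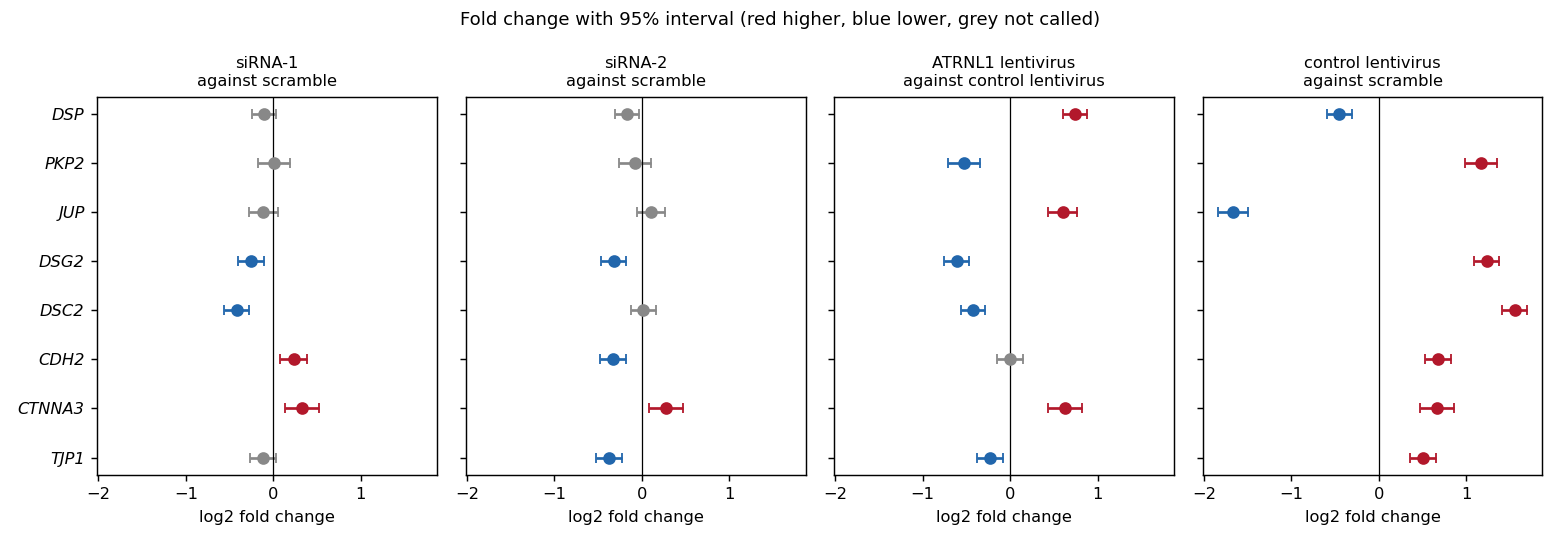
Log2 fold change of each of the 8 genes in the comparisons, as points with 95% intervals from the edgeR fit and a line at 0. With the ATRNL1 lentivirus, DSP, JUP and CTNNA3 lie above 0 (0.74, 0.60 and 0.63) and DSG2, PKP2, DSC2 and TJP1 below it. With the siRNAs the 8 genes lie between -0.42 and 0.33.

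Knockdown with siRNA-1 was set against the scramble libraries to ask what lower ATRNL1 does to the same genes. Of the desmosomal cadherins, DSC2 fell by 25.1% and DSG2 fell by 16.0%, while CTNNA3 and CDH2 rose by 25.5% and 17.5%. That makes 4 of 8 genes called, beside 9.61% of all genes tested (5.85% higher and 3.76% lower), with a median log2 fold change of -0.11 over the 8 and -0.0064 over all genes tested. DSP, JUP, PKP2 and TJP1 were not called.

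DSC2 was at 29.02, 28.5 and 27.9 CPM in scramble cells against 21.5, 21.5 and 20.9 under the first siRNA. The log2 fold change was -0.42 (SE 0.07, adjusted p = 0.000246). This gap held in all 14 alternatives, including the one without the in-between libraries (-0.44, adjusted p = 0.042). DSG2 was at 37.6, 36.6 and 36.8 CPM and then at 30.6, 30.7 and 32.0 (-0.25, SE 0.07, adjusted p = 0.0262), with no overlap. The DSG2 call ended when any 1 of the 6 libraries was left out (-0.26 to -0.23, adjusted p = 0.0683 to 0.126).

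CDH2 was at 696, 625 and 648 CPM in scramble cells against 816, 769 and 728 under the first siRNA (0.23 on the log2 scale with SE 0.07 and adjusted p = 0.0421). CTNNA3 was at 246, 165 and 207 and then at 272, 258 and 246 (0.33, SE 0.09, adjusted p = 0.0262). Scramble library 2 was the lowest of its group for both. Each call ended when any of 4 libraries was left out and held without either of the other 2 (siRNA-1 library 3 and scramble library 1): with siRNA-1 library 1 left out CDH2 came to 0.19 (adjusted p = 0.219), with library 2 of that group to 0.24 (0.122), and with scramble library 2 or 3 to 0.21 (0.163) or 0.23 (0.159). CTNNA3 came to 0.29 (adjusted p = 0.123), 0.34 (0.079), 0.20 (0.202) and 0.33 (0.0868) when the same 4 libraries were left out in turn. Of the 4 calls, only that of DSC2 remained without the 5 in-between libraries.

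The plaque genes stayed near their controls. DSP was at 1703, 1689 and 1694 CPM in scramble cells and at 1520, 1595 and 1612 with siRNA-1, a log2 difference of -0.11 with a 95% interval of -0.25 to 0.04 (adjusted p = 0.415), although the libraries did not overlap. Non-overlap of 3 against 3 libraries was common here, at 28.8% of all genes tested and 5 of the 8. PKP2 spread from 353 to 492 CPM over the scramble libraries and from 413 to 432 with siRNA-1, and its interval ran from -0.18 to 0.19. JUP lay at 130, 111 and 120 CPM against 113, 112 and 110, with an interval of -0.28 to 0.05, and TJP1 at 501, 450 and 473 against 451, 442 and 417, with -0.27 to 0.03.

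With siRNA-2, which left less ATRNL1 than siRNA-1, the genes that fell were TJP1 by 22.8%, CDH2 by 20.6% and DSG2 by 20.0%, and CTNNA3 rose by 21.0%. These 4 of 8 stand beside 18.1% of all genes tested (9.64% higher and 8.48% lower), and the median log2 fold change was -0.12 over the 8 and 0.0027 over all. This comparison uses the same 3 scramble libraries as the one with siRNA-1, so calls that occur in both are not independent.

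DSG2 went to 30.8, 29.1 and 28.9 CPM (log2 fold change -0.32, SE 0.07, adjusted p = 0.00196), below all 3 scramble libraries, while DSC2 stood at 29.5, 27.4 and 29.6 CPM amid them (0.02, 95% interval -0.12 to 0.16). CDH2 went to 514, 517 and 532 CPM (-0.33, SE 0.07, adjusted p = 0.00163) and TJP1 to 382, 361 and 355 CPM (-0.37, SE 0.07, adjusted p = 0.000462), both below every scramble library. Groups that did not overlap were common in this comparison too, at 36.7% of all genes tested and 4 of the 8. CTNNA3, at 257, 241 and 250 CPM, overlapped scramble library 1 (0.27, SE 0.09, adjusted p = 0.0436). Its call ended without siRNA-2 library 1 (adjusted p = 0.134), 2 (0.0761) or 3 (0.111) and without scramble library 2 (log2 fold change 0.14, adjusted p = 0.342) or 3 (0.126).

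DSP, at 1570, 1490 and 1475 CPM with siRNA-2, lay below every scramble library without passing the test (log2 difference -0.17, 95% interval -0.31 to -0.02, adjusted p = 0.0984). It did pass under 4 alternatives, with adjusted p = 0.0367 when genes under 1 CPM were left out, 0.0406 by DESeq2, 0.0298 by limma-voom and 0.0426 in a fit of the 2 groups alone. JUP was at 121, 137 and 132 CPM (interval -0.06 to 0.27) and PKP2 at 405, 390 and 408 (interval -0.26 to 0.11), both overlapping the controls. Without the 5 in-between libraries none of the 8 passed the edgeR test: DSG2 was at -0.31 (adjusted p = 0.126), CDH2 at -0.34 (0.157), TJP1 at -0.37 (0.103) and CTNNA3 at 0.30 (0.311), beside -0.32, -0.33, -0.37 and 0.27 with 15 libraries. At an unadjusted p below 0.05 edgeR gave 3 of the 8 there, DESeq2 called 1 (TJP1) and limma-voom 0.

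The 2 siRNAs were compared directly, since both share the scramble libraries. They differed for 3 of the 8 genes, beside 10.1% of all genes tested (4.53% higher and 5.60% lower). Libraries did not overlap for 5 of the 8, beside 33.9% of all genes tested. CDH2 was lower with siRNA-2 by a log2 difference of -0.56 (SE 0.07, adjusted p = 7.68e-06), having risen with one and fallen with the other. DSC2 was 35.2% higher with siRNA-2 (SE 0.07, adjusted p = 0.000135). Both differences stood without the in-between libraries, CDH2 at -0.56 (adjusted p = 0.0303) and DSC2 at 0.48 (adjusted p = 0.0248). TJP1 was lower with siRNA-2 (-0.25, SE 0.07, adjusted p = 0.0229). That call ended when library 1 (adjusted p = 0.111) or 2 (0.0917) of the siRNA-1 group, or library 2 (0.105) or 3 (0.107) of the siRNA-2 group, was left out. DSG2, which fell with each siRNA, differed between them by -0.07 (interval -0.22 to 0.08). JUP was higher in all siRNA-2 libraries than in any siRNA-1 library without passing (0.22, adjusted p = 0.0854), and passed with plain library sizes (0.29, adjusted p = 0.0142), with the 1 CPM filter (0.0458) and in a fit of the 2 groups alone (0.00172).

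The effect of overexpression was then tested against the mean effect of the 2 siRNAs, each within its own arm. It differed for 5 of the 8 genes, beside 32.0% of all genes tested (16.5% higher and 15.5% lower). Among the 8 the difference was largest for DSP, at 0.88 (log2, SE 0.09, adjusted p = 3e-08). For JUP it was 0.60 (SE 0.11, adjusted p = 7.34e-05). Both rose with the virus, and neither was called with an siRNA. PKP2 (-0.49, SE 0.12, adjusted p = 0.00182) and DSG2 (-0.32, SE 0.09, adjusted p = 0.009) differed the other way. DSG2 was called lower in each of the 3 treatments and more so with the virus. CTNNA3, which was called higher in all 3 treatments, differed by 0.33 (SE 0.12, adjusted p = 0.0474), a call that ended in 13 of 22 alternatives. Without the in-between libraries DSP and JUP remained called. For CDH2 the interval was -0.15 to 0.25 and for TJP1 -0.18 to 0.21. DSC2, at -0.22 (adjusted p = 0.0583), passed with plain library sizes (0.00412), with the 1 CPM filter (0.00676) and without ATRNL1 lentivirus library 2 (0.0016).

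**Figure D3:**
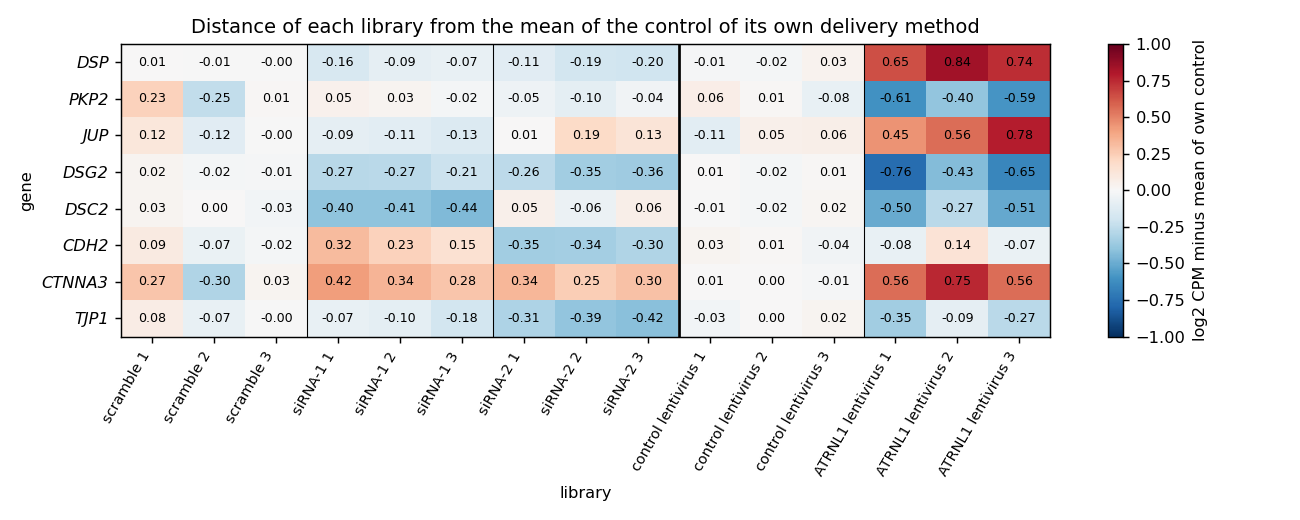
Log2 CPM of each of the 8 genes, library by library, minus the mean of that arm's own control libraries. The ATRNL1 lentivirus libraries lie above 0 for DSP, JUP and CTNNA3 and below it for DSG2, DSC2, PKP2 and TJP1, and CDH2 lies above 0 with siRNA-1 and below it with siRNA-2.

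All 8 genes differed between the 2 controls, the control lentivirus and the scramble siRNA, where delivery, selection and culture cannot be told apart. Here 63.6% of all genes tested were called (30.3% higher and 33.2% lower). DSC2 was 194% higher with the control virus (log2 fold change 1.56, SE 0.07, adjusted p = 4.82e-16), DSG2 135.4% (1.24, SE 0.07, adjusted p = 7.36e-14) and PKP2 124.6% (1.17, SE 0.09, adjusted p = 1.61e-11). CDH2 (0.68), CTNNA3 (0.67) and TJP1 (0.51) were higher as well. JUP was lower by a wide margin (-1.67, SE 0.08, adjusted p = 4.22e-15) and DSP was lower as well (-0.45, SE 0.07, adjusted p = 2.59e-06). Libraries of the 2 groups did not overlap for any of the 8, beside 68.5% of all genes tested without overlap. The control lentivirus libraries also serve as the control of the overexpression comparison, so the values of the 2 comparisons are not independent. All 8 calls held in all 14 alternatives. Scaling by library size alone moved the median of all genes here from -0.06 to -0.26, and the 8 genes with it, JUP to -1.86, DSP to -0.65, DSC2 to 1.36 and TJP1 to 0.31, without a change of direction.

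Across the 5 groups, DSC2 had the widest range, with the highest group mean 3.92 times the lowest, followed by JUP (3.42), DSG2 (2.94), CTNNA3 (2.46), PKP2 (2.37), CDH2 (2.02), TJP1 (1.84) and DSP (1.67). DSG2, DSC2 and PKP2 were highest with the control lentivirus, next with the ATRNL1 lentivirus, and lower in the siRNA arm, and these 3 steps did not overlap. For PKP2 the 3 siRNA-arm groups overlapped one another. The order for DSP was another one, with the control lentivirus lowest, siRNA-2 and siRNA-1 overlapping above it, then scramble and the ATRNL1 lentivirus. JUP, too, was lowest with the control lentivirus, then with the ATRNL1 lentivirus, and its 3 siRNA-arm groups were in the order siRNA-1, scramble, siRNA-2 with overlap between neighbours.

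These changes altered the proportions of the mRNAs. Per length, DSP was measured at 20.3 ± 0.236 times the summed level of DSG2 and DSC2 in scramble cells, at 23.2 ± 0.545 with siRNA-1, 21.1 ± 0.326 with siRNA-2, 5.92 ± 0.0633 with the control lentivirus and 14.5 ± 0.645 with the ATRNL1 lentivirus. JUP stood at 2.95 ± 0.199 times those cadherins in scramble cells. With siRNA-1 it was at 3.35 ± 0.0973 and with siRNA-2 at 3.71 ± 0.353, both above every scramble library. It stood at 0.37 ± 0.0242 times those cadherins with the control lentivirus and 0.828 ± 0.132 with the ATRNL1 lentivirus. PKP2 stood at 7.25 ± 1.1 times their level in scramble cells, 8.94 ± 0.332 with siRNA-1 (above every scramble library), 8.04 ± 0.205 with siRNA-2, 6.48 ± 0.363 with the control virus and 6.58 ± 0.188 with the ATRNL1 virus. Between the 2 cadherins, DSG2 was 2.62 ± 0.0338 times DSC2 in scramble cells, 2.94 with siRNA-1, 2.07 with siRNA-2, 2.1 with the control lentivirus and 1.85 with the ATRNL1 lentivirus. The size of this ratio depends on the exon lengths used, 6190 bases for DSG2 and 12495 for DSC2. Without division by length, the scramble means were 37.0 and 28.5 CPM. These ratios use the same values as the comparisons above and are a description of RNA. Protein was not measured.

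JUP also changed beside its close relative beta-catenin (CTNNB1), which binds classical cadherins and carries WNT signals. JUP made up 33.3% ± 0.666 of the summed level per length of the 2 genes in scramble cells, 28.2% ± 0.393 with siRNA-1, 31.7% ± 1.3 with siRNA-2, 9.98% ± 0.585 with the control lentivirus and 15.7% ± 1.73 with the ATRNL1 lentivirus. CTNNB1 itself was 0.50 higher on the log2 scale with the control lentivirus than with scramble siRNA (adjusted p = 1.72e-06) and differed by -0.14 with overexpression (adjusted p = 0.137). The share of CTNNA3 among alpha-catenins was 28.1% ± 0.0451 with the control lentivirus and 31.04% ± 0.993 with the ATRNL1 lentivirus, without overlap.

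**Figure D4:**
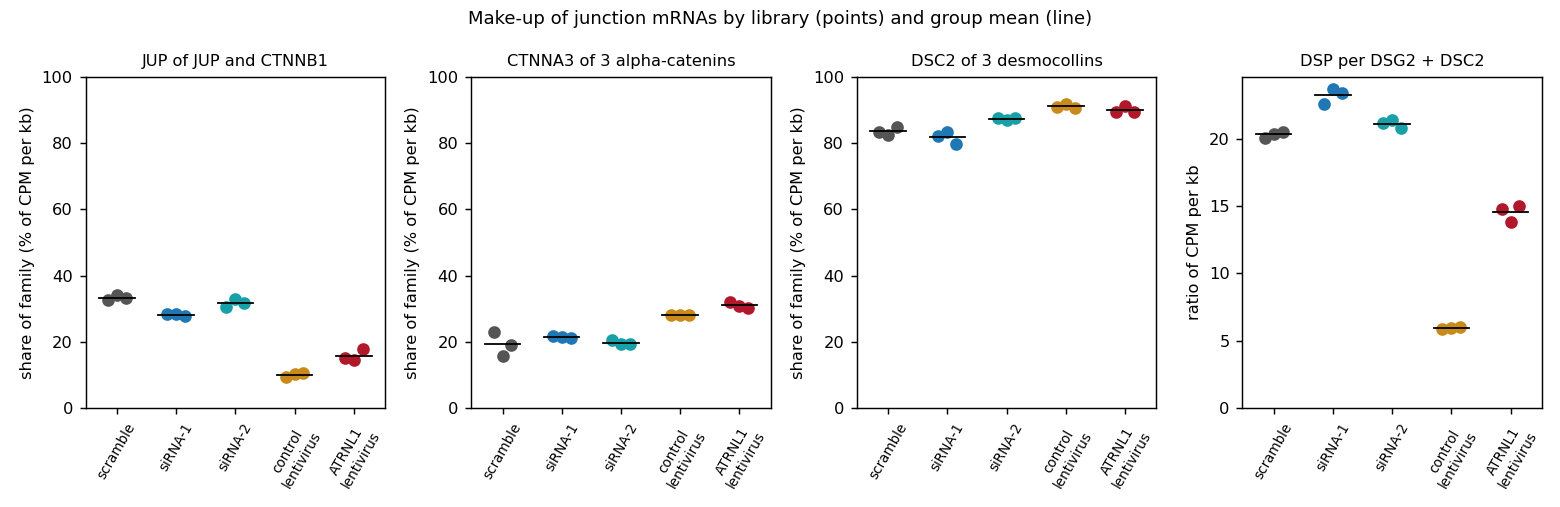
Share of the family's summed level per length, in percent, held by JUP, CTNNA3 and DSC2, by group, with 1 point per library. The last panel is not a share but the ratio of DSP to the sum of DSG2 and DSC2, per length. JUP falls from 32.7% to 34.0% of JUP plus CTNNB1 in scramble cells to 9.33% to 10.4% with the control lentivirus.

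Of 11 epithelial and other desmosome genes, 7 were tested. With overexpression 1 rose and 2 fell, beside 37.1% of all genes tested that were called; with siRNA-1 1 rose and 1 fell, beside 9.61%; and with siRNA-2 1 rose and 3 fell, beside 18.1%. PPL (periplakin), a plakin related to desmoplakin, rose with overexpression (1.39 on the log2 scale, adjusted p = 3.03e-11), siRNA-1 (0.37) and siRNA-2 (0.46). PKP4 fell in each (-0.19, -0.28 and -0.54), and the membrane protein PERP fell with overexpression (-0.36) and siRNA-2 (-0.39), as did DSC3 with siRNA-2 (-0.45). Since the 2 siRNAs share the scramble libraries, their values are side by side and not a repeat. The list's medians were -0.19, -0.07 and -0.39 for overexpression, siRNA-1 and siRNA-2.

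Of 15 adherens junction cadherins and catenins, all tested, 4 rose and 3 fell with overexpression (37.1% of all genes tested were called), 5 rose and 1 fell with siRNA-1 (9.61%), and 6 rose and 2 fell with siRNA-2 (18.1%). CTNNA2, the neural alpha-catenin, was at 9.04 ± 3.51 CPM in scramble cells and rose with siRNA-1 (1.43, adjusted p = 5.17e-06), siRNA-2 (0.90, adjusted p = 0.000495) and overexpression (0.72, adjusted p = 0.00112). ARVCF, a catenin of the p120 family, rose with overexpression (0.90) and siRNA-2 (0.71), and CTNND1, p120-catenin itself, fell with overexpression (-0.35). CDH11 fell with overexpression (-0.47) and rose with siRNA-1 (0.31) and siRNA-2 (0.69). CDH13, a cadherin without a cytoplasmic tail, rose with siRNA-1 (1.42) and overexpression (0.60), and CDH4 rose with siRNA-1 (1.24) and siRNA-2 (1.18). CDH1 (-0.36) and NECTIN2 (-0.25) fell with siRNA-2, and NECTIN2 fell with siRNA-1 as well (-0.27).

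TJP1 has tight junction partners, of which 12 of 13 were tested. Of these, 5 rose and 1 fell with overexpression, 1 rose and 1 fell with siRNA-1, and 2 rose and 2 fell with siRNA-2, beside 37.1%, 9.61% and 18.1% of all genes tested that were called. F11R, the adhesion molecule JAM-A that binds TJP1, fell in each, by 0.74, 0.29 and 0.62 on the log2 scale (adjusted p = 8.89e-09, 0.0112 and 1.07e-06). CLDN6, a claudin, rose with overexpression (0.82) and siRNA-2 (0.40). CGNL1, a junction plaque protein, rose with overexpression (0.75) and fell with siRNA-2 (-0.50). MPP5, a polarity scaffold, rose with siRNA-2 (0.69) and overexpression (0.27), and PARD3, another polarity protein, with siRNA-1 (0.25) and overexpression (0.19).

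The filaments that desmoplakin holds were represented by 13 intermediate filament and plakin genes, all tested. With overexpression 5 rose and 5 fell (37.1% of all genes tested were called), with siRNA-1 3 rose and 2 fell (9.61%), and with siRNA-2 4 rose and 2 fell (18.1%). DES, the desmin of heart muscle, was at 66.5 ± 4.5 CPM with the control lentivirus and 98.6 ± 9.05 with the ATRNL1 lentivirus, a rise of 0.57 (adjusted p = 3.42e-06). It also rose with siRNA-2 (0.38). It was chosen for mention as the filament DSP binds, after its value was seen. KRT19 rose with overexpression (1.37) and siRNA-1 (0.30), and PLEC, the cytolinker plectin, with overexpression (0.78) and siRNA-2 (0.51). NES (nestin) fell with overexpression (-0.77) and rose with siRNA-2 (0.44). KRT18 fell with overexpression (-0.27), siRNA-1 (-0.38) and siRNA-2 (-0.33). With siRNA-1 KRT8 fell (-0.35) and VIM, vimentin, rose (0.29). The plakin DST fell with siRNA-2 (-0.34) and rose with overexpression (0.39), where SYNC fell (-0.34).

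Among 28 actin anchors and other intercalated disc genes, all tested, 9 rose and 9 fell with overexpression (37.1% of all genes tested were called), 5 rose and 2 fell with siRNA-1 (9.61%), and 8 rose and 3 fell with siRNA-2 (18.1%). XIRP2, an actin-binding protein of the disc, rose with siRNA-1 (2.42, adjusted p = 2.53e-06), siRNA-2 (1.93) and overexpression (1.36), from 5.85 ± 3.29 CPM in scramble cells and 49.4 ± 5.93 with the control lentivirus. GJA1, the gap junction protein connexin 43 that sits beside these junctions, fell with siRNA-2 from 149 ± 1.41 to 66.2 ± 0.298 CPM (-1.18, adjusted p = 1.52e-10), rose with overexpression (0.85, adjusted p = 1.27e-09) and differed by 0.0026 with siRNA-1 (adjusted p = 0.991). NRAP, an actin anchor at the disc, rose with siRNA-1 (1.03), siRNA-2 (1.03) and overexpression (0.86). ITGB1BP2 (-0.94) and ILK (-0.57) fell with overexpression. XIRP1 fell with siRNA-1 (-0.40). ANK3 fell with siRNA-2 (-0.37) and overexpression (-0.41). Of 12 WNT and beta-catenin target genes tested, of 14 listed, the edgeR test called 0 with siRNA-1 (4 at an unadjusted p below 0.05), as did DESeq2 and limma-voom. With siRNA-2 ZNRF3 rose (0.42) and CCND1 fell (-0.54), a share near the 18.1% of all genes tested. With overexpression DKK1 (1.62) and NKD1 (0.94) rose and TCF7 (-0.73) and LEF1 (-0.44) fell, a share near the 37.1% of all genes tested.

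Markers of other cells moved along with some of these groups. The summed level of 8 epithelial markers was 26.4 to 28.4 CPM with scramble siRNA, 28.8 to 29.9 with siRNA-1, 26.8 to 28.3 with siRNA-2, 42.3 to 42.8 with the control lentivirus and 33.6 to 42.7 with the ATRNL1 lentivirus, and 4 of the 8 (GRHL2, KRT7, CLDN4 and RAB25) averaged under 1 CPM. EPCAM was higher with the control virus than with scramble siRNA (1.23), fell with overexpression (-0.27) and rose with siRNA-1 (0.28). It was the only 1 of the 8 called in the last 2 comparisons, beside 37.1% and 9.61% of all genes tested. Between the controls 3 of the 8 were higher and 3 lower, beside 30.3% and 33.2% of all genes tested. ELF3 went the other way from EPCAM there, at 4.83 CPM with scramble siRNA and 1.71 with the control virus. The 6 smooth muscle and pericyte markers summed to 319 to 487 CPM with scramble siRNA, 378 to 538 with siRNA-1, 507 to 577 with siRNA-2, 943 to 967 with the control lentivirus and 771 to 845 with the ATRNL1 lentivirus. In the same order of groups the 4 ventricular markers summed to 2142 to 2898, 2712 to 3421, 3495 to 3578, 2978 to 3485 and 4905 to 5629, higher in every siRNA-2 and ATRNL1 lentivirus library than in their controls. Most of each sum was MYL2 and MYL3. MYL2 went from a mean of 1133 to 1889 CPM with siRNA-2 and from 2069 to 3806 with overexpression. Of the 4 markers, MYL2 and IRX4 rose with siRNA-2, and MYL3 and HEY2 were not called. With overexpression 3 of the 4 rose. Beside these, 9.64% and 19.1% of all genes tested were called higher. The 8 fibroblast markers summed to 160.6 to 227 CPM with scramble siRNA, 216 to 239 with siRNA-1, 210 to 222 with siRNA-2, 119 to 124 with the control lentivirus and 130 to 164 with the ATRNL1 lentivirus. Of the 7 tested, 3 rose with siRNA-1 and 2 with siRNA-2, beside 5.85% and 9.64% of all genes tested called higher. POSTN (0.97 and 0.64) and PDGFRA (0.45 and 0.56) rose with siRNA-1 and siRNA-2, and COL1A1 with siRNA-1 alone (0.29, and -0.02 with siRNA-2). COL3A1 was not called with either (-0.25 and -0.04). The 6 epicardial markers, 4 of which averaged under 1 CPM, summed to 4.08 to 5.72, 6.80 to 8.49 and 7.19 to 7.57 CPM in the scramble, siRNA-1 and siRNA-2 groups. Their sums were 8.495 to 8.935 CPM with the control lentivirus and 10.56 to 13.77 with the ATRNL1 lentivirus. With overexpression 1 of those tested rose and 1 fell, beside 19.1% and 18.0% of all genes tested. Of the 5 tested, WT1 and ITLN1 rose with siRNA-1, and ITLN1 and BNC1 with siRNA-2. Beside them, 5.85% and 9.64% of all genes tested were called higher. ITLN1 and BNC1 were near the floor, at 0.12 and 0.23 CPM in scramble cells. The 6 skeletal muscle markers summed to 990.6 to 1140 CPM with scramble siRNA, 1056 to 1167 with siRNA-1 and 921.7 to 1013 with siRNA-2. They summed to 392 to 397.5 CPM with the control lentivirus and 617 to 729.5 with the ATRNL1 lentivirus, below the siRNA arm. Nearly all of both lentiviral sums was CKM, at means of 393.4 and 686.8 CPM, and 4 of the 6 averaged under 1 CPM. With overexpression 2 of the 4 tested rose and 1 fell, beside 19.1% and 18.0% of all genes tested. The 12 cardiomyocyte markers ran from 46120 to 59660 in scramble cells, 52300 to 59300 with siRNA-1, 50180 to 54860 with siRNA-2, 53730 to 56810 with the control lentivirus and 59650 to 62900 with the ATRNL1 lentivirus. These sums hide opposite moves. With overexpression 5 of the 12 rose and 3 fell, beside 19.1% and 18.0% of all genes tested. Between the controls 4 were higher and 5 lower, beside 30.3% and 33.2%. MYH6 had means of 9355 CPM with scramble siRNA, 4521 with the control lentivirus and 2925 with the ATRNL1 lentivirus. MYH7 had 4240, 7535 and 10900. The part of these markers in the results was not tested.

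Over the 15 libraries, with the mean of each delivery arm removed, the genes whose log2 CPM followed each of the 8 most closely were AMER1 (Pearson r = 0.986) and AHNAK2 (0.985) for DSP, PLEKHM2 (0.977) and STX4 (0.957) for JUP, GABRB2 (0.984) and DLGAP5 (0.982) for PKP2, EHBP1 (0.99) and FGD6 (0.979) for DSG2, HP1BP3 (0.961) and TMCO1 (0.956) for DSC2, USP12 (0.974) and CCND1 (0.973) for CDH2, ERC2 (0.974) and TRIB2 (0.971) for CTNNA3, and FBH1 (0.949) and FER (0.948) for TJP1. None of these was another of the 8. Among the 28 pairs of the 8 genes, 14 correlations were positive and 14 negative, from -0.791 (DSG2 with CTNNA3) to 0.807 (DSG2 with PKP2), and DSP with JUP had 0.803. These values describe points that share libraries, treatments and scaling factors.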

How the data were processed

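Bulk RNA-seq of 15 libraries was used. The table the authors deposited holds raw counts, 1 row a gene. Named in the submitters' processing notes, with no role, are GRCh38, STAR 2.7.9a and DESeq2 1.30.1; the sources used here do not give the counting program. Ribosomal RNA was depleted per the labels' protocols, whereas the molecule field names polyA RNA. The 649 rows named by a bare number (0.00157% to 0.00437% of a library's counts) were left out. The other 58780 identifiers all matched GENCODE 29. Columns name a group, and outside the scramble group their numbers are in no sample title, so library numbers pair nothing.

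All genes were fitted in 1 model of 5 group means with edgeR 4.0.16 in R 4.3.3 (TMM scaling, filterByExpr, quasi-likelihood F test, Benjamini-Hochberg adjustment over 24659 genes, threshold 0.05; biological coefficient of variation 8.24%), checked on simulated data. "Rose" and "fell" mean called so. Alternatives used DESeq2 1.42.0 size factors and test, limma 3.58.1 voom, other filters, plain library sizes, 2-group fits and leaving out libraries. Intervals are 95%. The members and lists were chosen with earlier results of these data known. From each other list, up to 2 called genes each way with the largest change and a mean of at least 1 CPM are named, and for likeness the 2 highest correlations; 2 genes under this rule are not reported here, and marker lists are given mainly as sums. Levels per length divide CPM by the union of exons over all annotated transcripts, which can be longer than the mRNA present. Shares, ratios and ranks between genes depend on that length, for example 4942 bases for JUP and 11927 for CTNNB1.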

Additional observations from a re-analysis of the deposited data

Results flagged for a closer look

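For 3 genes the effects of the 2 siRNAs differed by a direct test of siRNA-2 against siRNA-1 (edgeR, adjusted over all genes tested). The siRNA-2 effect minus the siRNA-1 effect, on the log2 scale, was -0.56 for CDH2 (SE 0.07, adjusted p = 7.68e-06), with all 3 siRNA-1 libraries above the scramble libraries and all 3 siRNA-2 libraries below them. It was 0.435 for DSC2 (SE 0.07, adjusted p = 0.000135), which fell with siRNA-1 by 0.42 and was 0.02 higher than scramble with siRNA-2. It was -0.25 for TJP1 (SE 0.07, adjusted p = 0.0229), with all siRNA-2 libraries below all siRNA-1 libraries; this call ended in 5 of 14 alternatives (adjusted p up to 0.503), whereas those of CDH2 and DSC2 held in all 14. Residual ATRNL1 also differed, at 8.26 to 10.2 CPM with siRNA-1 and 4.61 to 5.42 with siRNA-2, and its part in these differences was not tested.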

How the results depend on the processing

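Of 736 values of the 8 genes under an alternative, 669 kept their direction and side of the threshold, 57 were no longer called, 10 became called and none changed direction as a call. With siRNA-1, 2 of the genes were called under RLE size factors, 1 to 3 with 1 library left out and 1 without the in-between libraries, against 4; genes called in all were 1421 to 2984 with 1 library left out and 433 without the in-between libraries, against 2370. With siRNA-2, 0 of the 8 were called without the in-between libraries and 3 to 4 with 1 library left out; genes in all came to 1381 and 3113 to 4591. For siRNA-2 against siRNA-1, genes in all were 4914 in a fit of the 2 groups, 1432 to 1700 with 1 library left out and 459 without the in-between libraries, against 2499. With overexpression, 5164 genes were called without the in-between libraries and 7715 to 9345 with 1 left out (6 to 7 of the 8). For overexpression minus knockdown, 2 of the 8 and 4055 genes were called without the in-between libraries, and 4 to 5 and 6820 to 8506 with 1 left out. Between the controls 8 of the 8 and 14454 to 15437 genes were called with 1 left out. Dropping the in-between libraries leaves 10 libraries. With library size alone, higher calls were 3491 and lower 1486 for siRNA-2 (2378 and 2092 with TMM), 2055 and 1045 for siRNA-2 against siRNA-1 (1117 and 1382), and 5790 and 10045 between the controls (7480 and 8195).

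No paired analysis was possible because the groups compared share no replicate number in the labels, and outside the scramble group the columns' numbers are in no sample title. There are 3 libraries a group from 1 cell line, their independence is unknown, and the counts of genes called with the siRNAs move when single libraries are left out.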
